A study of Danio rerio with 12 samples.

Results

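The genes described here encode enzymes of glucose and pyruvate metabolism: 20 genes of glycolysis, 3 of gluconeogenesis, 5 of the pentose phosphate pathway and its regulation, and 10 of pyruvate oxidation and the citrate cycle, 38 in all. They were measured in zebrafish (*Danio rerio*, ABTL strain) on 12 1-colour Affymetrix Zebrafish Genome Arrays, each hybridized with total RNA of 1 pool of 20 whole embryos. The ethanol-exposed embryos grew from 2 hours post fertilization (hpf) in embryo medium that held 100 mM ethanol, and the control embryos in medium without it, until RNA was extracted at 4.5 hpf. Each treatment has 6 pools, numbered 1 to 6, and same-numbered pools were treated as the pair of 1 experiment. A pool of whole embryos cannot tell fewer cells of a type from less RNA per cell.

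Members were found by their gene symbol in the array annotation. Of the 38, 34 have a probe set with their symbol, and *pfkmb*, *tkta*, *tigara* and *pdk2a* have none and were not analysed here. A gene was tested where a probe set had a mean MAS5 signal of at least 50 in 1 treatment. The MAS5 signal is the background-corrected, scaled intensity of a probe set on a linear scale. Of the 34 genes, 28 were tested, each on its probe set of highest mean signal, among 9767 probe sets and 6410 named genes of the whole array. The other 6, *gpib*, *pfkma*, *aldoab*, *ldha*, *pck1* and *ogdha*, had means under 50 in both treatments. Passing this minimum only through the treatment with the higher mean favours genes that differ, and that applies to *tigarb* and *aldocb*.

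Glycolysis splits glucose into pyruvate in the cytosol and yields ATP and NADH. Gluconeogenesis runs the other way and bypasses the irreversible steps with phosphoenolpyruvate carboxykinase and fructose-1,6-bisphosphatase, while the pentose phosphate pathway draws glucose 6-phosphate off to make NADPH and ribose 5-phosphate. Pyruvate dehydrogenase and the citrate cycle oxidize pyruvate in mitochondria. The early fish embryo lives on yolk and on transcripts laid down in the egg until its own genome is activated in the blastula.

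A limma model of the log2 signal, with terms for treatment and for experiment, was run on all 9767 probe sets. A call needed a log2 fold change of at least 0.32 in size, p under 0.03 before adjustment and under 0.15 after it (Benjamini-Hochberg). Over all probe sets 369 were higher and 158 lower with ethanol (120 and 287 after median centring of the arrays, 103 and 146 after quantile normalization), and the median log2 fold change was 0.05, which median centring moved to -0.05. All 9 listed blastula genes, such as *pou5f3* and *nanog*, passed the signal minimum and 0 were called by limma (3 at an unadjusted p under 0.05, background 18.2% of all probe sets). Their summed signals were 57575 to 68083 in ethanol-exposed and 56599 to 66356 in control embryos. Of 6 muscle genes, which turn on in later stages, 4 have a probe set, and *ckma* and *actc1b* passed the minimum, while none of the 3 red blood cell genes with a probe set did. Mean signals were 77.0 in ethanol-exposed and 60.2 in control embryos for *ckma*, and 98.2 and 112 for *actc1b*. A signal somewhat above 50 therefore need not mean that a gene was expressed. Array medians lay between 98.6 and 107 with ethanol and between 91.6 and 102 in controls.

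Both tested members of gluconeogenesis, *fbp1b* and *pck2*, were called lower with ethanol. The *pck2* call was lost whichever experiment was left out, where 21 to 143 of all probe sets were called, against 527 with all 6. The further tested genes of that pathway, *fbp1a* and *pcxa*, had log2 fold changes of 0.23 and 0.30 and were not called. *pcxa* had low means of 50.3 in ethanol-exposed and 30.6 in control embryos, and passed the minimum only through the ethanol mean. None of the 15 tested members of glycolysis or the 8 of pyruvate oxidation and the citrate cycle passed the test. The regulator gene *tigarb* was called higher, but it entered the test only through its ethanol signals. With no signal minimum it was not called (adjusted p = 0.302 from limma), nor were the other genes, and 2 probe sets were called on the whole array. With a minimum of 100 *tigarb* was not tested. Of the 28 members, 1 was thus called higher and 2 lower, where 5.40% of all probe sets were called, 3.78% as higher and 1.62% as lower. The median log2 fold change of the 28 was 0.03. The same 3 genes were called after quantile normalization and after median centring. All 3 calls were lost when the experiment term was left out of the fit, with adjusted p = 0.161 for *tigarb*, 0.608 for *fbp1b* and 0.666 for *pck2* from limma. That fit called 1 of all probe sets, against 527 with the term. With experiments 3 to 6 only, 0 of the 28 were called by limma (3 at an unadjusted p under 0.05), with log2 fold changes of 2.13, -0.68 and -1.54 for these genes and adjusted p = 0.156 to 0.286. Over all probe sets 14 were called in these experiments, so that most calls of any gene were lost there.

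*fbp1b* encodes fructose-1,6-bisphosphatase, which removes a phosphate from fructose 1,6-bisphosphate in gluconeogenesis. Its signal was 1147, 1361, 1265, 903, 1037 and 345 in ethanol-exposed embryos of experiments 1 to 6, against 2123, 2444, 1819, 1140.2, 1576 and 823 in control embryos. It was lower with ethanol in 6 of 6 pairs (3.84% of all probe sets were), although the 2 groups of arrays overlapped, and experiment 6 gave the lowest signal of either treatment. The mean was 1009.5 ± 363 in ethanol-exposed and 1654 ± 605 in control embryos (SD, n = 6 each). The log2 fold change of -0.74 (SE 0.13, 95% interval -1.04 to -0.45, adjusted p = 0.0716 from limma) equals 0.598 times the control signal. The log2 ratio averaged -0.87 in experiments 1 and 2 and -0.49 in experiments 3 to 5, and was -1.25 in experiment 6. The call was lost without experiment 1 (log2 fold change -0.71, adjusted p = 0.155 from limma), 2 (-0.72, 0.157) or 3 (-0.79, 0.178). Over all probe sets these 3 fits gave 62, 91 and 21 calls, against 527 with all experiments.

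*pck2* encodes a phosphoenolpyruvate carboxykinase, which makes phosphoenolpyruvate from oxaloacetate and whose mammalian namesake works in mitochondria. Its signal was 107, 189, 31.4, 21.2, 4.73 and 46.8 in ethanol-exposed embryos of experiments 1 to 6, against 397, 223, 64.6, 35.2, 45.5 and 100.3 in control embryos. It was lower with ethanol in 6 of 6 pairs, by very unequal amounts, and the treatments overlapped. Most of the signal lay in experiments 1 and 2, and in experiments 4 and 5 both arrays were under 50. The mean was 66.6 ± 69.4 in ethanol-exposed and 144 ± 142 in control embryos (SD, n = 6 each), with a log2 fold change of -1.38 (SE 0.35, 95% interval -2.19 to -0.57, adjusted p = 0.127 from limma). The log2 ratios in experiments 1 to 6 were -1.89, -0.24, -1.04, -0.74, -3.27 and -1.10, and the largest, in experiment 5, rests on an ethanol signal of 4.73. On the log2(signal + 50) scale, which damps such low values, the log2 fold change was -0.65 (adjusted p = 0.0437 from limma). The *pck2* call was lost whichever experiment was left out, with adjusted p = 0.171 to 0.241 from limma, and also with experiment as a random block (adjusted p = 0.202). Over all probe sets, leaving out an experiment gave 21 to 143 calls, against 527 with all 6.

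The other carboxykinase gene, *pck1*, whose mammalian namesake is cytosolic, was near the floor of the array. Its signal ran from 2.40 to 14.6 in ethanol-exposed and from 4.39 to 22.5 in control embryos, and it was not tested. *fbp1a*, the paralog of *fbp1b*, was measured with low signals of 42.4, 75.1 and 107 (lowest, median, highest) in ethanol-exposed and 26.8, 75.2 and 115 in control embryos. Its log2 fold change was 0.23 (95% interval -0.21 to 0.66, adjusted p = 0.545 from limma). The change of *fbp1b* minus that of *fbp1a* was -0.97 (SD 0.67, n = 6), negative in 5 of 6 experiments. This pair was chosen after its values had been seen, and the difference is given with no test.

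**Figure D1:**
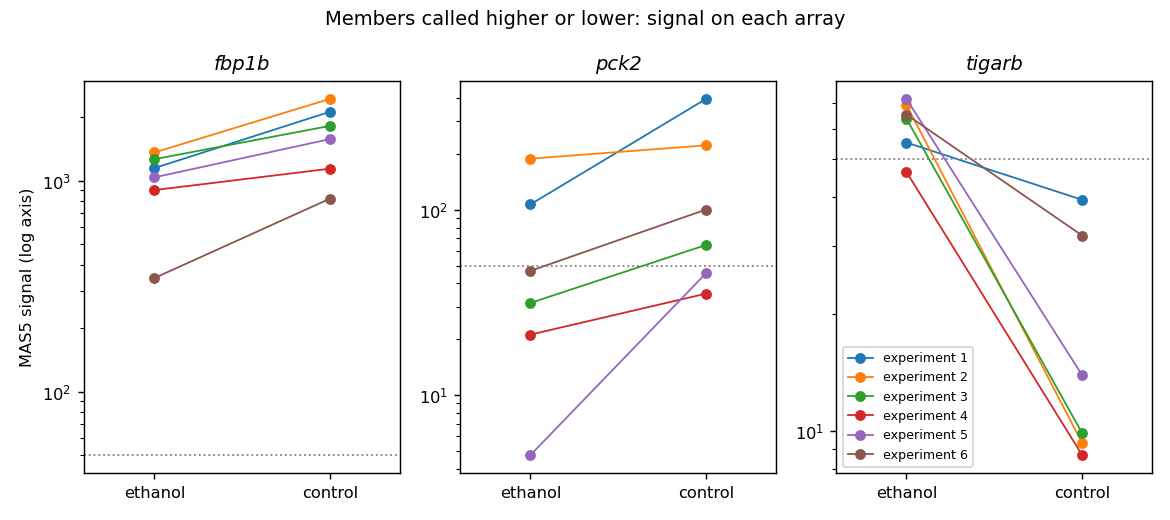
MAS5 signal (log axis) of *fbp1b*, *pck2* and *tigarb* on each array, with ethanol on the left and control on the right and a line for each experiment; the dotted line is the signal minimum of 50. *fbp1b* and *pck2* are lower with ethanol in all 6 pairs and *tigarb* is higher in all 6, and the *tigarb* control signals all lie under 50.

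Markers of the yolk syncytial layer, an extraembryonic tissue at the yolk surface, were in part lower too. Of 12 listed, 10 have a probe set, 8 passed the minimum, 3 were called lower and 0 higher by limma (6 lower and 0 higher at an unadjusted p under 0.05). Among all probe sets 5.40% were called and 18.2% had such an unadjusted p, counting both directions. The transferrin gene *tfa* had a log2 fold change of -1.05, the apolipoprotein gene *apoa1a* one of -1.03 and *afp4* one of -0.63 (adjusted p = 0.0494, 0.0885 and 0.0940 from limma). The tested genes *hnf4a*, *gata6*, *apoeb* and *ctsla* had log2 fold changes of -0.38, -0.34, -0.21 and -0.19 and were not called. In contrast, *mxtx2*, a transcription factor gene that defines this layer early, had one of 0.18 (adjusted p = 0.373). Summed over the 10 genes, the signal was 38672 to 46427 in ethanol-exposed and 40252 to 60393 in control embryos, lower with ethanol in 6 of 6 experiments by log2 ratios of -0.06 to -0.44. Most of this sum came from *ctsla* and *apoeb*, neither of them called. Their means were 22056 and 13776 in ethanol-exposed and 25268 and 16073 in control embryos. *apobb.1* and *slc40a1* were under the minimum, and none was listed at 0. The part of these cells in the values of *fbp1b* and *pck2* was not tested. Of 8 enveloping layer markers that passed the minimum, 1 was called lower, *krt17* (log2 fold change -0.91, adjusted p = 0.0494 from limma), and 4 were lower and 0 higher at an unadjusted p under 0.05. Their median log2 fold change was -0.21, and their summed signal was 35244 to 44258 in ethanol-exposed and 36636 to 48759 in control embryos, lower with ethanol in 5 of 6 experiments. The part of this layer was not tested either.

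**Figure D2:**
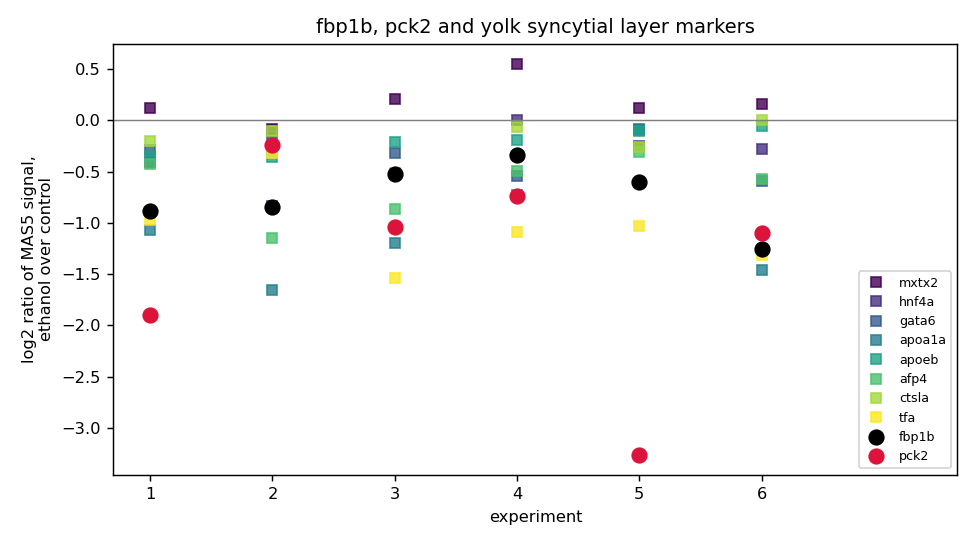
Log2 ratio of MAS5 signal, ethanol over control, in each of 6 experiments for *fbp1b* (black), *pck2* (red) and the 8 tested yolk syncytial layer markers (squares). *fbp1b* and *pck2* lie below 0 in all 6 experiments, as do *tfa*, *apoa1a*, *afp4*, *gata6* and *apoeb*. *hnf4a* and *ctsla* lie below 0 in 5, whereas *mxtx2* lies above 0 in 5.

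*tigarb* is a zebrafish ortholog of TIGAR, a phosphatase that in mammals is induced by p53, lowers fructose 2,6-bisphosphate and so diverts glucose 6-phosphate into the pentose phosphate pathway. Its signal was 55.3, 69.1, 63.7, 46.4, 71.6 and 65.2 in ethanol-exposed embryos of experiments 1 to 6, against 39.4, 9.31, 9.87, 8.66, 13.9 and 31.8 in control embryos. The lowest ethanol signal was above the highest control signal. The treatments did not overlap for 0.594% of all tested probe sets, but *tigarb* passed the signal minimum only through its ethanol signals, so that this share cannot be read as support. The mean was 61.9 ± 9.43 in ethanol-exposed and 18.8 ± 13.3 in control embryos (SD, n = 6 each), with a log2 fold change of 1.98 (SE 0.32, 95% interval 1.24 to 2.73, adjusted p = 0.0665 from limma). Every control signal was under the minimum of 50, and 5 of the 6 ethanol signals were above it. The ethanol mean lay under those of the muscle genes *ckma* and *actc1b* (77.0 and 98.2). The fold is therefore uncertain, and on the log2(signal + 50) scale the log2 fold change was 0.72 (adjusted p = 0.0125 from limma). These adjusted p-values carry the same selection by ethanol signal. With no signal minimum the adjusted p was 0.302 from limma. That setting called 2 probe sets on the whole array, so that it cannot tell how much the selection matters for *tigarb*. The log2 ratios were 0.49, 2.89, 2.69, 2.42, 2.36 and 1.03 in experiments 1 to 6. The ethanol signals were alike in all experiments, and the smaller ratios of experiments 1 and 6 came with the 2 highest control signals. The call was lost without experiment 3 (log2 fold change 1.84, adjusted p = 0.180 from limma), where 21 of all probe sets were called, against 527 with all experiments.

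The enzymes of the pentose phosphate pathway itself did not pass the test. *pgd*, whose 6-phosphogluconate dehydrogenase yields NADPH, had signals of 609, 472, 666, 810.3, 826 and 904 in ethanol-exposed and 487, 579.9, 903, 780.1, 849 and 982 in control embryos of experiments 1 to 6. Its log2 fold change was -0.09 (95% interval -0.35 to 0.18, adjusted p = 0.719 from limma). *taldo1*, which encodes transaldolase of the nonoxidative branch, had signals of 2386, 2312, 3367, 3396, 2791 and 2694 in ethanol-exposed and 2901, 3028, 3223, 3268, 3158 and 2444 in control embryos, and a log2 fold change of -0.10 (-0.33 to 0.14, adjusted p = 0.632). For both genes the treatments overlapped almost wholly, and the signal was lower with ethanol in 4 and 3 of 6 experiments.

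In glycolysis, 0 of 15 tested genes were called by limma, with 1 at an unadjusted p under 0.05 (background 18.2%). The model of the methods with Storey q called 0 of them, and 548 of all 9767 probe sets. The log2 fold changes ran from -0.27 to 0.50, with a median of 0.14 beside 0.05 for all probe sets. After median centring these medians were 0.04 and -0.05, and without experiment 1 they were 0.01 and 0.04. The gene at an unadjusted p under 0.05 was *pgk1*, whose phosphoglycerate kinase makes the first ATP of the pathway. Its signal was 538, 496, 423, 475, 461 and 602 in ethanol-exposed embryos of experiments 1 to 6, against 279, 525, 421, 259.7, 323 and 582 in control embryos. The pairs of experiments 1, 4 and 5 differed clearly and those of 2, 3 and 6 hardly at all. The log2 fold change of 0.38 (SE 0.16, 95% interval 0.00 to 0.76, adjusted p = 0.270 from limma) did not pass. It was 0.28 after median centring and 0.28 after quantile normalization, with unadjusted p = 0.117 and 0.114 from limma. A second *pgk1* probe set, with means of 13.0 in ethanol-exposed and 15.1 in control embryos, was under the minimum.

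Of the genes for the first steps, *hk1* and *hk2* encode hexokinases, which trap glucose in the cell as glucose 6-phosphate. *hk1* averaged 93.3 ± 34.4 in ethanol-exposed and 111 ± 34.7 in control embryos (SD, n = 6 each), with a log2 fold change of -0.27 (95% interval -0.69 to 0.15), and *hk2* averaged 231 ± 51.6 in ethanol-exposed and 208 ± 52.4 in control embryos, with one of 0.16 (-0.19 to 0.52). A second *hk1* probe set gave -0.30 (-0.78 to 0.17). *gpia*, the gene of glucose-6-phosphate isomerase, had a log2 fold change of 0.21 (-0.15 to 0.56). Its signal was higher with ethanol in experiments 1, 2 and 6 and lower in 3 to 5, with means of the log2 ratio of 0.57 in experiments 1 and 2 and -0.11 in 3 to 5. Of the phosphofructokinase genes, *pfkma* was measured only under the minimum, with means of 28.6 in ethanol-exposed and 39.4 in control embryos.

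Aldolase cleaves fructose 1,6-bisphosphate, and triosephosphate isomerase interconverts its products. *aldoaa* averaged 5094 ± 772 in ethanol-exposed and 5276 ± 1364 in control embryos (SD, n = 6 each) and had a log2 fold change of -0.03 (95% interval -0.27 to 0.22). *aldocb*, with signals of 83.8, 56.3, 39.6, 17.0, 9.21 and 103 in ethanol-exposed and 10.9, 71.8, 13.7, 75.0, 9.51 and 49.8 in control embryos, scattered around the minimum. Its log2 fold change of 0.50 therefore had an interval of -0.81 to 1.81 that spans large changes in both directions. *tpi1a* was higher with ethanol in 6 of 6 experiments (background 8.14% of probe sets), by a log2 fold change of only 0.18 (-0.02 to 0.38, adjusted p = 0.307 from limma), which did not pass the test. The count is on the deposited scaling, and the *tpi1a* log2 fold change was 0.08 after median centring and 0.10 after quantile normalization. *tpi1b* had one of -0.15 (-0.40 to 0.09), with a lower signal in 5 of 6 experiments. After median centring the *tpi1b* value was -0.26 (unadjusted p = 0.0418, adjusted p = 0.250 from limma).

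In the later steps of the pathway, *gapdh*, whose glyceraldehyde-3-phosphate dehydrogenase yields NADH and whose transcript often serves as an internal control, had signals of 8320.3, 11036 and 13714 (lowest, median, highest) in ethanol-exposed and 7476, 11597 and 12779 in control embryos. Its log2 fold change was -0.01 (95% interval -0.23 to 0.22), or 0.851 to 1.16 times the control signal, on the deposited scaling. *gapdhs* had a log2 fold change of 0.14 (-0.36 to 0.65), with a log2 ratio of 1.26 in experiment 1 where the control signal was 42.7. The phosphoglycerate mutase genes *pgam1a* and *pgam1b* had log2 fold changes of 0.23 (-0.08 to 0.55) and 0.19 (-0.06 to 0.44). The enolase genes *eno1a* and *eno3* had 0.02 (-0.27 to 0.31) and 0.00 (-0.22 to 0.22). *ldhba*, which encodes a lactate dehydrogenase, averaged 3699.7 ± 925 in ethanol-exposed and 3855 ± 1039 in control embryos (SD, n = 6 each), with a log2 fold change of -0.05 (-0.26 to 0.16), while *ldha* was under the minimum, at means of 42.8 in ethanol-exposed and 38.8 in control embryos.

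**Figure D3:**
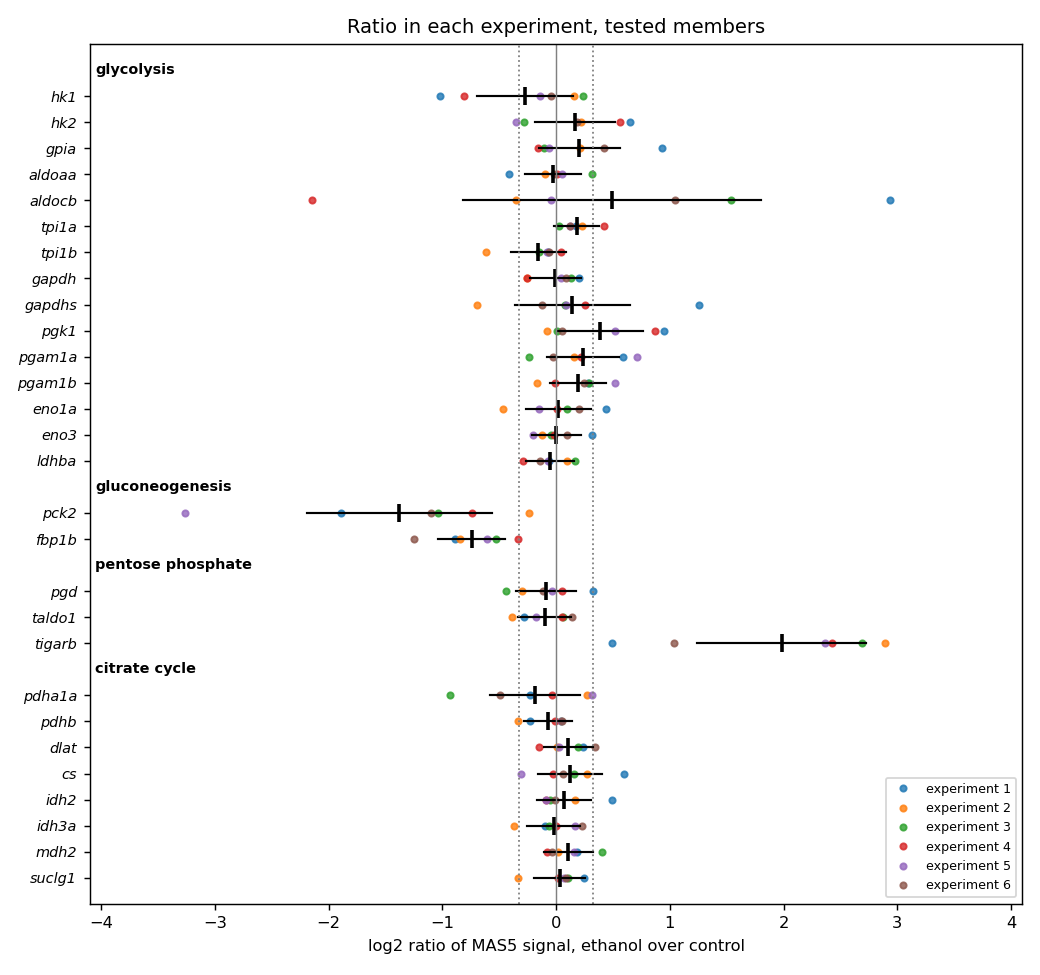
Log2 ratio of MAS5 signal, ethanol over control, of the 28 tested members in each of 6 experiments (coloured points), with the limma log2 fold change (black tick) and its 95% interval (black line); dotted lines mark a log2 ratio of 0.32 in either direction. *pck2* and *fbp1b* lie wholly below 0 and *tigarb* wholly above it, points and interval alike. The *pgk1* interval is also above 0, from 0.004, as are all 6 points of *tpi1a*. The intervals of 9 of the 25 members not called lie between the dotted lines.

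In pyruvate oxidation and the citrate cycle, 0 of 8 tested genes were called by limma and 0 by the model of the methods (548 of all 9767 probe sets). At an unadjusted p under 0.05 there were 0 as well (background 18.2%). Their log2 fold changes ran from -0.18 to 0.12, with a median of 0.05, close to that of all probe sets (-0.05 and -0.05 after median centring, -0.01 and 0.04 without experiment 1). *pdha1a*, which encodes a subunit of pyruvate dehydrogenase, had signals of 173, 214, 129, 198, 232 and 179 in ethanol-exposed and 203, 177, 247, 203, 187 and 253 in control embryos of experiments 1 to 6. Its log2 fold change was -0.18 (95% interval -0.58 to 0.21, adjusted p = 0.586 from limma), and a second probe set gave -0.16. The other subunit genes of this complex, *pdhb* and *dlat*, had -0.07 (-0.28 to 0.14) and 0.11 (-0.11 to 0.32).

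*cs*, the gene of citrate synthase, which feeds acetyl-CoA into the cycle, had signals of 1396, 1193, 1146, 1024, 991 and 1141 in ethanol-exposed and 923, 989, 1029.9, 1043, 1228 and 1092 in control embryos, with a log2 fold change of 0.12 (-0.16 to 0.41, adjusted p = 0.615 from limma). The log2 ratio was 0.60 in experiment 1 and -0.31 in experiment 5, so that the pairs did not move one way. The isocitrate dehydrogenase genes *idh2* and *idh3a* had log2 fold changes of 0.07 (-0.17 to 0.31) and -0.02 (-0.26 to 0.21), *suclg1*, a succinyl-CoA ligase gene, 0.03 (-0.19 to 0.26), and *mdh2*, the gene of mitochondrial malate dehydrogenase, 0.11 (-0.11 to 0.33). *ogdha*, of the oxoglutarate dehydrogenase complex, was under the minimum, with signals of at most 85.7 in ethanol-exposed and 41.8 in control embryos.

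A gene that does not pass the test can still have changed, and the intervals say by how much on the deposited scaling. For 9 of the 25 members that were not called, the 95% interval lay within a log2 fold change of 0.32 in both directions, where 20.5% of all probe sets did. These were *aldoaa*, *gapdh*, *eno1a*, *eno3* and *ldhba* of glycolysis and *pdhb*, *idh2*, *idh3a* and *suclg1* of the mitochondrial steps. For the other 16, among them both hexokinase genes and *pgk1*, the interval reached past 0.32 in at least 1 direction. The log2 fold change of *gapdh* was -0.11 after median centring and 0.11 after quantile normalization, so that these lists can depend on the scaling.

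Of 11 pairs of paralogs or isozymes among the members, 5 had both genes tested, and their ratios were compared within each experiment. The change of *tpi1a* minus that of *tpi1b* was 0.34 (SD 0.26, n = 6), positive in 6 of 6 experiments, from 0.17 to 0.84. Flipping the signs of the 6 differences in every possible way (exact permutation test, two-sided) gave p = 0.03125, the lowest value 6 experiments allow, and an adjusted p = 0.156 over the 5 pairs, so that a single pair cannot pass 0.05 in this design. The difference was -0.43 (95% interval -1.37 to 0.50) for *hk1* minus *hk2*, -0.15 (-0.72 to 0.42) for *gapdh* minus *gapdhs*, 0.04 (-0.33 to 0.41) for *pgam1a* minus *pgam1b* and 0.02 (-0.17 to 0.21) for *eno1a* minus *eno3* (exact adjusted p = 0.859 to 0.875).

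For most of these transcripts experiment held a larger share of the variance than treatment, with *tigarb*, *pgam1b*, *cs* and *pdha1a* as the exceptions. Experiment has 6 levels and treatment 2, so that experiment tends to hold the larger share even where neither has an effect. Of the variance of the log2 signal over the 12 arrays, experiment held a median of 80.1% for the 28 members and 63.4% for all tested probe sets, and treatment 4.24% and 6.38%. The members and all tested probe sets were not matched for signal level. The 4 arrays of experiments 1 and 2 did not overlap the 6 of experiments 3 to 5 for 14 of the 28, with 12 lower in experiments 1 and 2 (background 11.9%) and 2 higher (background 10.2%). *idh2*, for example, ran from 881 to 1319 in experiments 1 and 2 and from 2145 to 2560.2 in experiments 3 to 5, and *ldhba* from 2428 to 2675 and from 3659 to 4639. The 2 genes higher in experiments 1 and 2 were *aldoaa* and *pck2*. These sets of experiments were seen in the data and are no groups of the study, so that the comparison carries no test.

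**Figure D4:**
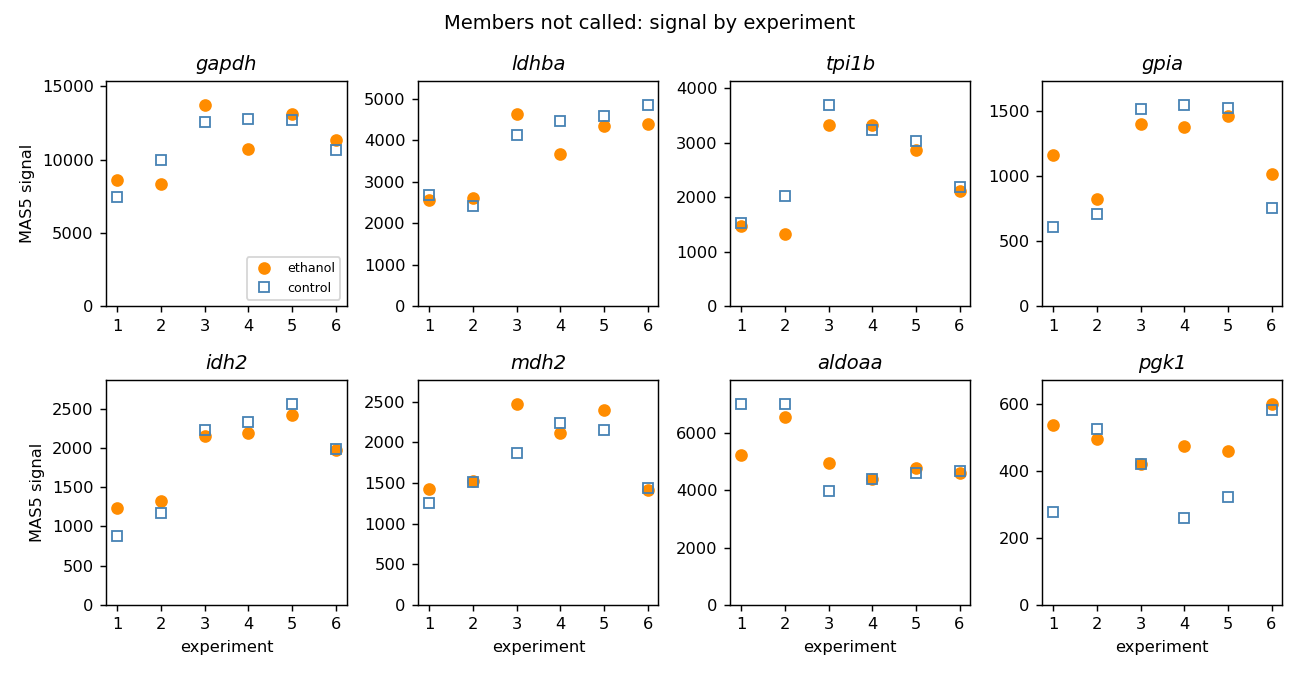
MAS5 signal of 8 members that were not called, by experiment, in ethanol-exposed (filled orange) and control embryos (open blue), 1 array per point. *gapdh*, *ldhba*, *tpi1b*, *gpia*, *idh2* and *mdh2* are lower in experiments 1 and 2 than in 3 to 5, *aldoaa* is higher, and *pgk1* shows its widest gaps between treatments in experiments 1, 4 and 5.

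Beyond the members, 76 further genes of the same pathways were looked up. Of these, 42 have a probe set, 28 passed the minimum and 0 were called by limma, while 6 had an unadjusted p under 0.05 (background 18.2%), all with a higher signal (background 12.8%), and 1, *me3*, was called higher by the model of the methods with Storey q. Over all 9767 probe sets that model called 394 higher and 154 lower. The 6 were chosen for mention after their values had been seen. Their values and the medians by pathway below are on the deposited scaling. Median centring moved the median log2 fold change of all probe sets from 0.05 to -0.05. *pkma*, a pyruvate kinase gene, had a log2 fold change of 0.20 (95% interval 0.00 to 0.39), and *pfkfb1* and *pfkfb4b*, whose bifunctional enzymes set the level of fructose 2,6-bisphosphate, had 0.21 (0.01 to 0.41) and 0.30 (0.07 to 0.53). Each of these 3 was higher with ethanol in 6 of 6 experiments (background 8.14% of probe sets), at adjusted p = 0.265, 0.262 and 0.183 from limma. So was 1 more of the 28, *prps1a* of nucleotide precursor synthesis, with a log2 fold change of 0.10 (-0.09 to 0.29). The *pfkfb4b* signal, for instance, was 3245, 3531, 3412, 3063, 3155 and 4519.7 in ethanol-exposed embryos of experiments 1 to 6, against 2835, 2305, 2634, 2913, 2377 and 4081 in control embryos. *pdp2*, a pyruvate dehydrogenase phosphatase gene, had a log2 fold change of 0.47 (0.05 to 0.88), *me3*, a malic enzyme gene, 0.33 (0.10 to 0.56), and *pklr*, another pyruvate kinase gene, 0.92 (0.01 to 1.84) at signals near the minimum, each higher in 5 of 6 experiments. The pyruvate kinase gene *pkmb* has no probe set with its symbol.

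By pathway, 6 further genes of glycolysis and its regulation were tested, with a median log2 fold change of 0.20, 2 of gluconeogenesis (0.26), 4 of the pentose phosphate pathway and nucleotide precursor synthesis (0.06) and 16 of pyruvate oxidation and the citrate cycle (0.03). The gluconeogenic genes were *fbp1a* and *pcxa*, a pyruvate carboxylase gene with a log2 fold change of 0.30 (-0.46 to 1.05). *pcxa* averaged 50.3 in ethanol-exposed and 30.6 in control embryos, so that it too was tested only through its ethanol signals. *tktb*, a transketolase gene, had one of 0.04 (-0.18 to 0.25). The succinate dehydrogenase genes *sdha*, *sdhb* and *sdhc* had log2 fold changes of 0.04 (-0.16 to 0.25), -0.08 (-0.28 to 0.12) and 0.09 (-0.19 to 0.37), and *fh*, the fumarase gene, one of 0.01 (-0.30 to 0.32).

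**Figure D5:**
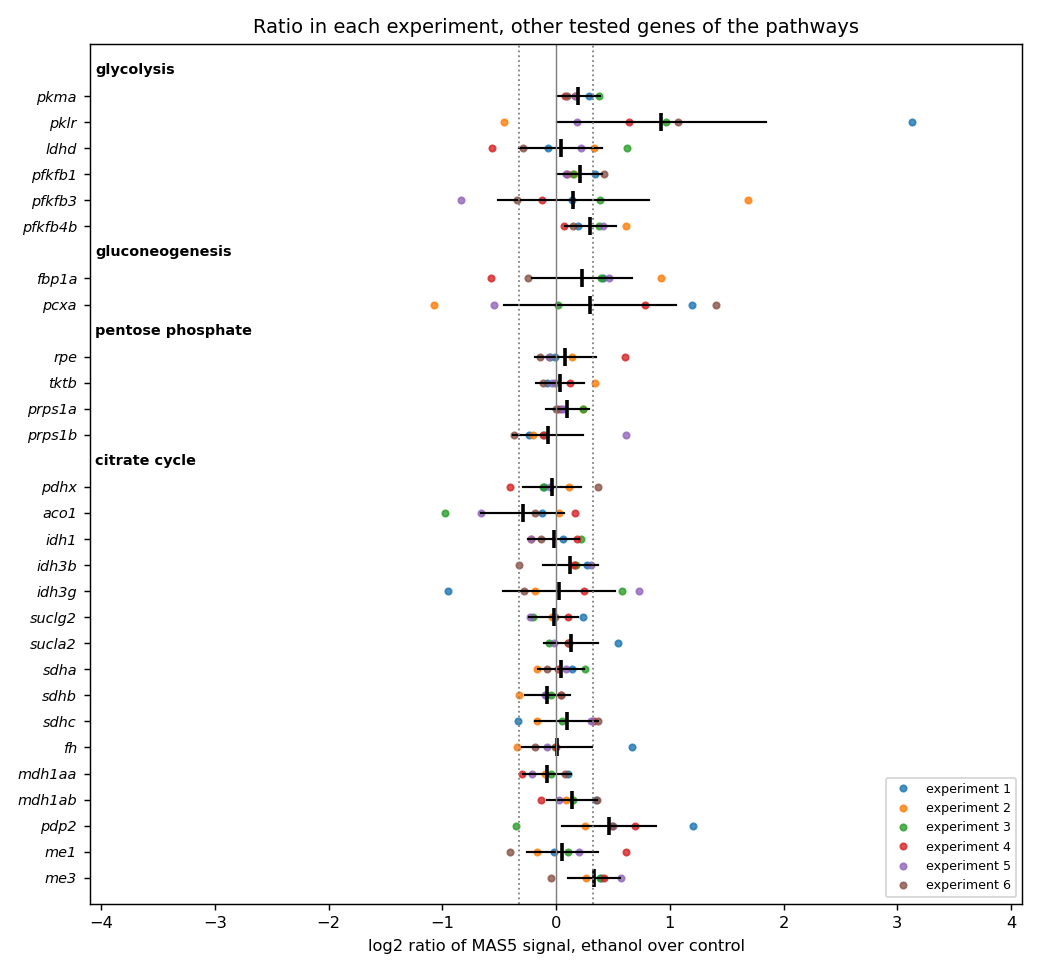
Log2 ratio of MAS5 signal, ethanol over control, of 28 further tested genes of the pathways in each of 6 experiments (coloured points), with the limma log2 fold change (black tick) and its 95% interval (black line); dotted lines mark a log2 ratio of 0.32 in either direction. *pkma*, *pfkfb1*, *pfkfb4b* and *prps1a* are above 0 in all 6 experiments, *prps1a* by as little as 0.001 in experiment 6, and most genes of the citrate cycle scatter around 0.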

How the data were processed

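Arrays were hybridized together. The intensity of 15617 probe sets was deposited on a linear scale as MAS5 signals, which the authors obtained in Affymetrix Expression Console (version not given in the sources used here) with a common scaling target. Of these, 10802 have 1 gene symbol in GEO's annotation of 2016, with symbols brought up to date by gene identifier, 135 several and 4680 none. The 115 Affymetrix controls and 5735 probe sets with means under 50 in both treatments were left out. Detection calls were not used here.

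Log2 signals were fitted in limma 3.58.1 (R 4.3.3) with treatment and experiment, after the methods, and p-values adjusted by Benjamini-Hochberg over 9767 probe sets. Same-numbered arrays deviated together (correlations of 0.373 to 0.669), and the numbers were taken to mark the experiment and to pair the arrays. The sample titles give a number but do not say that it is the experiment. Only 3 of 6 control arrays were closest to the ethanol array of their own number. The calls, the counts of pairs and the exact tests rest on this pairing. Python 3.11.15 ran the exact tests, with scipy 1.17.1, pandas 2.3.3, numpy 2.4.6 and, for plots, matplotlib 3.10.9. The steps were tested on simulated data. The number of arrays limits the precision. Members, lists and tests were chosen with earlier results of these data known. Shown in full were called members, gluconeogenesis, *tigarb* and, in each pathway, up to 2 uncalled members of largest change. Alternatives were log2(signal + 50), median centring, averaging a gene's probe sets, quantile normalization, a random block or none, adjusted p under 0.05, other signal minimums, leaving out each experiment, and the ANOVA of the methods (Storey q), called the model of the methods. Leaving out experiments 1 and 2, or 1, 2 and 6, was added after the data were seen.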

Additional observations from a re-analysis of the deposited data

Results flagged for a closer look

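Within each treatment, the lowest and the highest log2 signal of the 6 arrays were compared with the rest for all 28 tested members, 56 groups in all, and 3 groups held an array far from the others. The rule was not applied to the linear signals, which are the ones printed here. Chance alone gives this in about 1 in 20 such groups. *fbp1b* had a signal of 345 on the ethanol array of experiment 6, against 903 to 1361 on the other ethanol arrays, and its control array of experiment 6 was also the lowest of the controls, at 823. *gapdhs* had a signal of 42.7 on the control array of experiment 1, against 124 to 178 on the other control arrays. *dlat* had a signal of 132 on the ethanol array of experiment 1, against 171 to 190.2 on the other ethanol arrays.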

How the results depend on the processing

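Of the 28 members, 3 were called with experiment as a factor. Without the replicate block 0 were called by limma (1 at an unadjusted p under 0.05), with no signal minimum 0 of 34 (3 at that p), at an adjusted p under 0.05 0 (4), in experiments 3 to 6 only 0 (3) and in experiments 3 to 5 only 1, *tigarb*. Leaving out each experiment in turn gave 0 to 2, with 0 without experiment 3 (5 at an unadjusted p under 0.05). Over all probe sets, where 527 were called, these settings gave 1, 2, 33, 14 and 1, and 21 to 143 when an experiment was left out. Quantile normalization gave 249 and a signal minimum of 100 gave 824, at which *tigarb* was not tested. *pck2* also missed the threshold in the model of the methods with Storey q (adjusted p = 0.159) and with a random block. Over the alternatives its adjusted p ran from 0.0437 to 0.666, that of *fbp1b* from 0.0125 to 0.608 and that of *tigarb* from 0.0125 to 0.302, and none of the 3 changed direction. The 25 members not called stayed so under the 18 alternatives wherever they were tested (*aldocb* was not, at a minimum of 100). The stricter adjusted p under 0.05 could not add a call. Settings that called 1 or 2 of all probe sets left little room for one. The 5 paralog comparisons could not reach 0.05 for a single pair in any setting. The glycolysis median became -0.02 in experiments 3 to 5 only and 0.01 without experiment 1, and the citrate cycle median -0.05 after median centring and -0.01 without experiment 1. Low signals, under 50 in all *tigarb* controls and 4 of 6 *pck2* ethanol arrays, limit the size of those folds.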

Other observations

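The array also carries 3 Affymetrix control probe sets for *gapdhs*, from the 3′ end, the middle and the 5′ end of the transcript, which were left out of the fit. Their mean signals were 122, 84.9 and 69.0 in ethanol-exposed embryos and 133, 81.1 and 93.7 in control embryos, with mean log2 ratios of -0.21, 0.00 and -0.24, beside 0.14 for the tested *gapdhs* probe set.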
